A study of Mus musculus with 6 samples.

Results

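The oncofetal liver genes are a group named for high expression in fetal liver or in liver progenitor cells and for renewed expression in liver cancer. Some of them, such as Ly6d and Lgals3, are also known from other cells. The members were a list of 10 genes (Afp, Gpc3, H19, Igf2, Dlk1, Cd24a, Ly6d, Prom1, Golm1 and Lgals3), and each non-control probe whose gene name was on the list was taken. All 10 genes had a probe, and together they had 13 probes of the 39429 on the array, which carry 31896 gene names. The list was drawn up from what the genes are known for, with earlier results of these data in view.

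In the fetal liver, hepatoblasts divide and can form hepatocytes or bile duct cells, and they make alpha-fetoprotein, the insulin-like growth factor IGF2 and the imprinted RNA H19. After birth these genes are silenced in hepatocytes. The surface proteins CD24 and prominin 1 and the Golgi protein GOLM1 remain mainly in bile duct, progenitor or other cells that are not hepatocytes. Several of the products are used as serum or tissue markers of hepatocellular carcinoma.

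The study asked how gene expression in the liver outside the tumours differed between diets in a mouse model of liver cancer. Both groups were male C57BL/6 mice, an inbred strain, 5 weeks old at the start and divided at random, and each group held 3 mice. The control group ate a commercial laboratory diet and the restricted group a diet with moderate restriction of carbohydrate. Mice of both groups were injected hydrodynamically into the tail vein, which drives DNA into liver cells, with a transposon vector that carries HrasG12V (activated human Hras), shp53 (a hairpin RNA against p53) and GFP4. No group without the vector was analysed here, and the labels name no promoter for it. The sample labels give 1 week of feeding before injection and 5 weeks of diet, and the series text gives 2 weeks and 4 weeks. The series title adds phytochemicals that mimic calorie restriction to the restricted diet, and the sample labels do not mention them. Both diets are called supplemented in the sample titles, without a named supplement. Total RNA from the non-tumour region of each liver was measured on 1 single-colour Agilent array per mouse.

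Values are log2 signals relative to the 75th percentile of signal on the same array, so that 0 is the level of that percentile and a step of 1 is a doubling. Each 60-base probe binds its own target with its own strength, so values compare mice for a probe and not genes with each other. The 75th percentile lay between 287 and 574 signal units, and each array had 23527 to 25815 probes of 39429 well above background. The 3 control mice and restricted mouse 1 were on slide 1, scan 1, and restricted mice 2 and 3 on slide 2, scan 2, so all between-diet values rest partly on a comparison across slides. The number of arrays, 3 for each diet, limits the precision. In tissue samples such as these, fewer cells of a type and less RNA per cell cannot be told apart. The labelled tissue bore its markers: Alb, which encodes albumin, was saturated on all 6 arrays, and all 10 hepatocyte markers were tested.

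Of the 10 genes, Cd24a, Ly6d, Golm1 and Lgals3 were lower and Afp was higher on the restricted diet. Dlk1, H19 and Prom1 were tested and did not pass, and Gpc3 and Igf2 were too dim to test. Thus 8 genes passed the background filter (well above background in every mouse of at least 1 diet) and 5 of these passed limma's moderated test at a Benjamini-Hochberg adjusted p under 0.05, beside 27.5% of the 19616 features tested over the whole array. Over all features 14.6% were higher and 12.8% lower on the restricted diet, against 1 and 4 of the 8 genes. The values of the diets did not overlap for 6 of the 8 genes, beside 44.8% of all features. The median difference of all features was 0.12, to which each difference below can be set. With 3 mice against 3, the exact two-sided permutation test cannot go below p = 0.1.

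**Figure D1:**
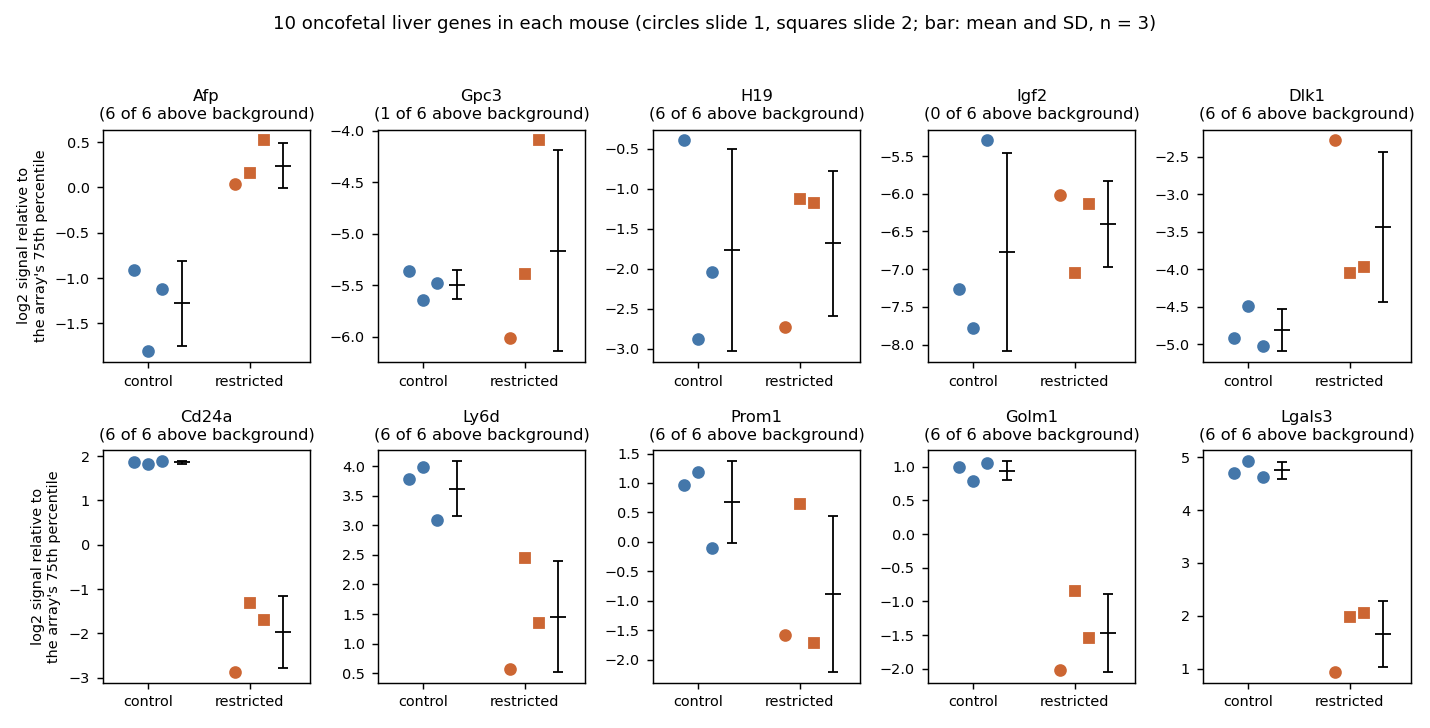
Log2 signal over the 75th percentile of each array (y axis) of the 10 oncofetal liver genes in each control and restricted mouse (x axis), with 1 probe for each gene, circles for slide 1, squares for slide 2, and the mean and SD of 3 mice beside them. Cd24a, Golm1 and Lgals3 are each lower in every restricted mouse than in any control mouse, and Afp is higher in every restricted mouse. Titles give the number of arrays on which the probe was well above background.

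Afp encodes alpha-fetoprotein, the major plasma protein of the fetus and a serum marker of hepatocellular carcinoma. It was the only member called higher. Its probe lies on mm9 chr5:90937781-90937840, plus strand, and its first 30 bases are printed here because this probe carries the single called increase.

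Afp probe, bases 1 to 30: gtgagccttttggcttaactgtaactgcta

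In the control mice Afp measured -0.91, -1.81 and -1.12, and in the restricted mice 0.04, 0.16 and 0.52. Every restricted mouse lay above every control mouse, and the lowest value belonged to control mouse 2. The means were -1.28 ± 0.47 (SD, n = 3) and 0.24 ± 0.25 (SD, n = 3), a log2 difference of 1.52 with a 95% interval from 0.87 to 2.17 (2.86-fold, limma adjusted p = 0.00775). Afp is printed 10 times on each array, which gives a technical error of its own. Within an array the spots spanned, for example, 118 to 137 signal units in control mouse 2 and 345 to 430 in restricted mouse 1, and the SD over spots was 0.049 to 0.091 on the log2 scale. The spread between mice of a diet was thus larger than that between spots. On slide 1 the difference was 1.32, and Afp did not pass with slide as a block (adjusted p = 0.0807) or on slide 1 alone (adjusted p = 0.12, the highest over the alternatives, of which the lowest was 0.00229).

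Gpc3 encodes glypican 3, a heparan sulfate proteoglycan anchored in the membrane of fetal hepatocytes and of many liver cancers. Its probe (mm9 chrX:49625740-49625799, minus strand) was not well above background in any control mouse and was so in 1 restricted mouse. Control mice measured -5.36, -5.64 and -5.48. Restricted mice measured -6.01, -5.39 and -4.09, and the last of these, from mouse 3, was the detected value. The diets overlapped, and no test was made.

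H19, Igf2 and Dlk1 are imprinted genes, expressed from 1 parental copy. H19 is a long RNA without a protein product, made from the maternal copy next to Igf2, and Igf2 encodes a fetal growth factor made from the paternal copy. Igf2 was not well above background on any of the 6 arrays at its probe (mm9 chr7:149839661-149839720, minus strand). It measured -7.26, -7.78 and -5.29 in control mice and -6.01, -7.05 and -6.14 in restricted mice, values that carry no order. H19 had a pair of probes, printed because they differed in brightness and spread. Both are on the minus strand, the 5′ probe at mm9 chr7:149762417-149762476 and the 3′ probe at mm9 chr7:149761492-149761551.

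H19 5′ probe: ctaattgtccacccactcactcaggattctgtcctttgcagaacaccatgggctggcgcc
H19 3′ probe: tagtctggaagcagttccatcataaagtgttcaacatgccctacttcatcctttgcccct

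The 3′ probe, the brighter of the pair, stood for the gene. It measured -0.39, -2.88 and -2.04 in control mice and -2.73, -1.13 and -1.18 in restricted mice. The mice of each diet spread over more than a doubling, and the diets overlapped. The difference was 0.09 with a 95% interval from -1.55 to 1.73 (limma adjusted p = 0.936), so these 6 mice do not fix its direction. It became -0.96 with slide as a block. The 5′ probe was well above background on 5 of 6 arrays and stayed between -4.68 and -4.46 in control mice and between -4.79 and -4.38 in restricted mice. At that probe control mouse 1, the highest mouse at the 3′ probe, did not stand out, and the difference was 0.02 (SE 0.18, limma adjusted p = 0.934 over all probes, of which 26.6% were called). The 5′ probe's signals of 10.4 to 23 units were near the lowest signals well above background, 8.87 to 15.8. A small spread there cannot be set against that of the 3′ probe.

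Dlk1 encodes a membrane protein of the Notch ligand family that marks hepatoblasts, made from the paternal copy of an imprinted cluster whose maternal RNA is Meg3. Its probes lie close together on the plus strand, the upstream probe at mm9 chr12:110698502-110698561 and the downstream probe at mm9 chr12:110698721-110698781. They are printed because only the downstream one was detected. The upstream probe can be read without a stop in 1 of its reading frames, over 20 codons.

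Dlk1 upstream probe: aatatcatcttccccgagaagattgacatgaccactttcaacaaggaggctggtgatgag
Dlk1 downstream probe, bases 1 to 30: tacacatattgtcttgtgttgctggtgcca

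The downstream probe measured -4.92, -4.49 and -5.03 in control mice and -2.28, -4.05 and -3.97 in restricted mice. Restricted mouse 1 was well above all others, and restricted mice 2 and 3 lay slightly above the highest control mouse. In signal units that was 19, 20.4 and 10.9 against 77.9, 25.6 and 18.3. The lowest signals well above background were 8.87 to 15.8, so all but restricted mouse 1 were near that floor. Before scaling, restricted mouse 3 was below control mice 1 and 2. The difference was 1.38 with a 95% interval from 0.25 to 2.5 (2.6-fold, limma adjusted p = 0.0725), which did not pass. It was 0.8 without restricted mouse 1 and 0.66 with normexp background correction. With slide as a block it was 2.53 and passed (adjusted p = 0.00416, the lowest over the alternatives, of which the highest was 0.194), and that estimate is restricted mouse 1 against the 3 control mice. The upstream probe was not well above background on any array, at -7.38, -7.79 and -7.58 in control mice and -5.71, -7.06 and -7.04 in restricted mice. Every restricted value was above every control value. All of them lay below the lowest signal well above background of their array, so their order is not read.

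Meg3, the maternal RNA of the same cluster, rose. Its brightest probe measured -2.15, -1.93 and -1.85 in control mice and 1.52, -0.03 and 2.23 in restricted mice. Every restricted mouse lay above every control mouse, and the diets differed by 3.22 (SE 0.53, 9.29-fold, limma adjusted p = 0.00531). Of its other probes, both dim in all control mice, 1 was well above background in all restricted mice, where it was at least 5.46-fold higher, and 1 in 2 of them, and the latter was not tested. The order of the restricted mice differed between the genes: mouse 1 was highest for Dlk1 and mouse 3 for Meg3.

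**Figure D2:**
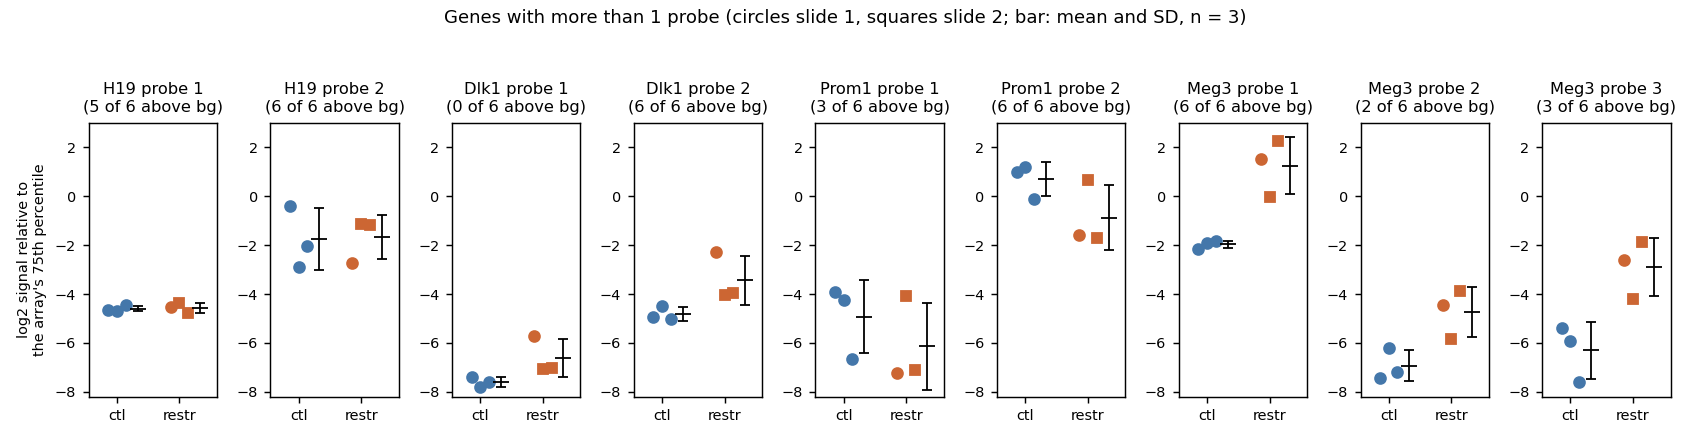
Log2 signal over the 75th percentile of each array (y axis) by diet (ctl, control; restr, restricted) for each probe of H19, Dlk1, Prom1 and Meg3, with circles for slide 1, squares for slide 2 and the mean and SD of 3 mice; H19 probe 1 is the 5′ probe, and Dlk1 and Prom1 probes 1 are the upstream ones. The 3′ probe of H19 spreads from -2.88 to -0.39, and its 5′ probe stays near the floor, between -4.79 and -4.38. Meg3 probe 1 is higher in all 3 restricted mice. Titles give the number of arrays on which a probe was well above background (bg).

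Cd24a, Ly6d and Prom1 encode proteins of the cell surface. Cd24a and Ly6d fell, and Prom1 did not pass. Cd24a encodes a small, heavily glycosylated protein with a lipid anchor, found on progenitor cells, bile duct cells and immature leukocytes. Its probe lies on mm9 chr10:43303706-43303765, plus strand, and is shown because the gene had the largest difference of the 10.

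Cd24a probe, bases 1 to 30: cttggttctaccgtaagtttttccaatttc

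Control mice measured 1.87, 1.82 and 1.88, and restricted mice -2.88, -1.31 and -1.71. The control mice were nearly alike (SD 0.03) and the restricted mice were far below them and spread more (SD 0.81). In signal units that was 2090, 1610 and 1310 against 51.5, 171 and 87.8. The difference was -3.82 with a 95% interval from -4.73 to -2.91 (14.1-fold lower, limma adjusted p = 0.000818), and 0.816% of all features differed by more.

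Ly6d encodes a lipid-anchored protein of the Ly6 family, known from early B cells and squamous epithelium. Its probe lies on mm9 chr15:74592551-74592610, minus strand.

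Ly6d probe, bases 1 to 30: caggacaggaagatgtggcttgtgtcccag

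It measured 3.79, 3.98 and 3.09 in control mice and 0.57, 2.44 and 1.35 in restricted mice. The diets did not overlap, although restricted mouse 2 came within 1 unit of control mouse 3. The difference was -2.16 with a 95% interval from -3.29 to -1.03 (4.48-fold lower, limma adjusted p = 0.0162). Of the members called lower, it had the largest p. Without control mouse 1 the difference was -2.08 (adjusted p = 0.0553) and without control mouse 2 it was -1.98 (adjusted p = 0.0608), and neither passed. Over its alternatives the adjusted p ran from 0.00662 to 0.0853.

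Prom1 encodes prominin 1, or CD133, a protein of membrane protrusions used as a marker of liver progenitors and of cancer stem cells. Its pair of probes is on the minus strand, the upstream one at mm9 chr5:44397410-44397469, which has 1 frame without a stop, and the downstream one at mm9 chr5:44384861-44384920. The downstream probe stood for the gene, and the capitals in its last 30 bases mark AATAAA, the usual signal for addition of the poly(A) tail, at position 40 of the probe.

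Prom1 upstream probe: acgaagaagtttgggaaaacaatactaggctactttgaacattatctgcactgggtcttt
Prom1 downstream probe, bases 31 to 60: gagatttaaAATAAAgcatgaatgaacaga

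The downstream probe measured 0.97, 1.18 and -0.11 in control mice and -1.59, 0.64 and -1.72 in restricted mice. Restricted mouse 2 lay within the control range, and the other restricted mice lay below it. The difference was -1.57 with a 95% interval from -3.15 to 0.01 (limma adjusted p = 0.127). Without restricted mouse 2 it was -2.34 and passed (adjusted p = 0.0141, the lowest over the alternatives, of which the highest was 0.3). The upstream probe was well above background in 2 control mice and 1 restricted mouse, at -3.9, -4.26 and -6.64 in control mice and -7.22, -4.09 and -7.11 in restricted mice. At both probes control mouse 3 was the lowest control mouse and restricted mouse 2 the highest restricted mouse.

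Golm1 encodes a membrane protein of the Golgi apparatus, released into serum in liver disease and scarce in healthy hepatocytes. Its probe lies on mm9 chr13:59736466-59736525, minus strand. Lgals3 encodes galectin 3, a lectin that binds galactosides and is abundant in macrophages. Its probe lies on mm9 chr14:48005414-48005473, plus strand, with AATAAA in capitals at position 38. Both genes fell, and both probes are shown because their calls held under all 21 alternatives that give an adjusted p.

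Golm1 probe, bases 1 to 30: gcagtgtgatgtggttttccttcaactgca
Lgals3 probe, bases 31 to 60: tccatttAATAAAgtctcatgctgagagat

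Golm1 measured 0.99, 0.78 and 1.05 in control mice and -2.01, -0.85 and -1.54 in restricted mice. The diets were clearly apart, with a gap wider than the range within either diet. The difference was -2.41 with a 95% interval from -3.12 to -1.7 (5.31-fold lower, limma adjusted p = 0.00175). Lgals3 measured 4.71, 4.93 and 4.62 in control mice and 0.93, 1.97 and 2.05 in restricted mice. Here too every restricted mouse lay below every control mouse. The difference was -3.1 with a 95% interval from -3.85 to -2.35 (8.58-fold lower, limma adjusted p = 0.000867), and 1.96% of all features differed by more.

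The restricted mice differed among themselves in a recurring order. Restricted mouse 1 was the lowest for Cd24a, Ly6d, Golm1 and Lgals3, and restricted mouse 2 the highest for Cd24a, Ly6d, Prom1 and Golm1. Restricted mouse 1 is the only one on the slide of the control mice. With slide as a block, where 15.4% of all features were called, the differences were -4.73 for Cd24a, -3.04 for Ly6d, -2.95 for Golm1 and -3.82 for Lgals3. These estimates are restricted mouse 1 against the 3 control mice, as they are on slide 1 alone, where 11.5% of all features were called, and the fits are not independent of each other. All of these 4 genes passed in both, with that lone mouse taken to vary like the others. The count of members called was 5 in each of these fits, with Dlk1 in place of Afp.

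**Figure D3:**
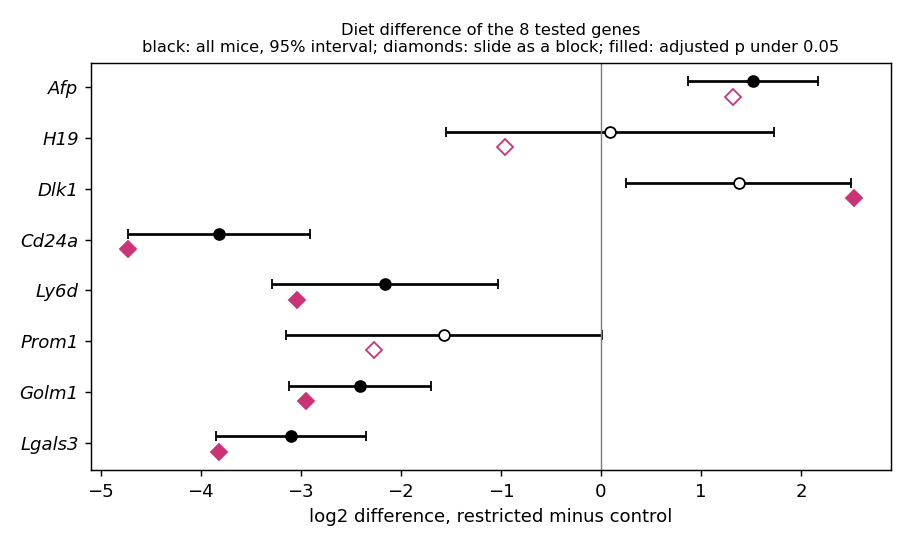
Log2 difference between the diets, restricted minus control (x axis), for the 8 tested genes (y axis). Black circles are the fit over all 6 mice with its 95% interval, diamonds the fit with slide as a block, and filled symbols passed at an adjusted p under 0.05. Cd24a, Ly6d, Golm1 and Lgals3 are filled in both fits, Afp (1.52 and 1.32) only in the first and Dlk1 (1.38 and 2.53) only in the second.

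**Figure D4:**
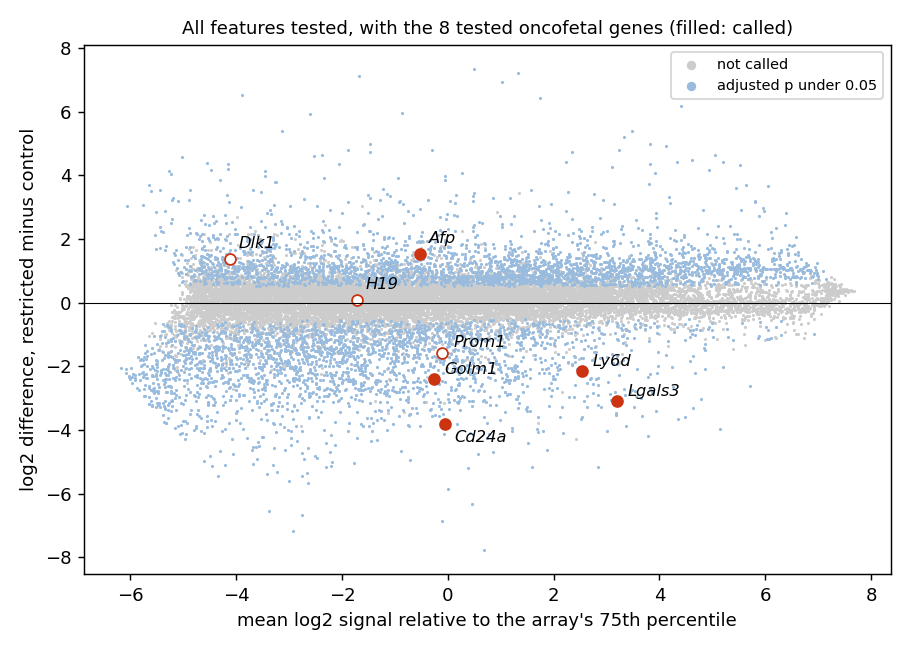
Log2 difference, restricted minus control (y axis), against the mean log2 signal relative to the 75th percentile (x axis) for the 19616 features tested. Blue features passed at an adjusted p under 0.05 and grey ones did not. The 8 tested oncofetal genes are ringed in red and filled where called: Cd24a at -3.82 is low among the features of its brightness, and H19 at 0.09 is in the middle.

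For each tested gene the 3 features of ordinary name with the highest Pearson correlation over the 6 mice, among 13898, are given as a description, since diet and array are shared by all of them. Lgals3 was most like Pld4 (r = 0.9998), S100a4 (0.9992) and Tedc1 (0.999), and Cd24a most like Trerf1 (0.9987), Rbl1 (0.9985) and Aspm (0.9983). Golm1 was most like Smpd3 (0.9981), Aunip and Plekhh1, and Ly6d most like Ucp2 (0.9972), Pygb and Ids. For Afp they were Trmu (0.9953), Gorasp1 and Mfsd3, for Prom1 Dpagt1 (0.9949), Rfc2 and Ccdc43, for Dlk1 Etnk2 (0.987), Mpdu1 and Cir1, and for H19 Mettl14 (0.9706), Gemin6 and Zfp74. Features with r above 0.9 numbered 1618 for Lgals3, 1570 for Cd24a, 1410 for Golm1, 822 for Ly6d and 797 for Afp. They numbered 225 for Dlk1, 79 for Prom1 and 17 for H19. The patterns of the called genes were thus shared by many features of these arrays.

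Other genes of the same pathways moved in both directions. Their counts stand beside 14.6% of all features higher, 12.8% lower and 27.5% called, and several lists are close to those shares. Counts under the slide block stand beside 15.4% of all features called. In the list of other oncofetal genes, 15 of 18 were tested, 3 rose and 5 fell, and the median difference was -0.28 (-0.45 with slide as a block, -0.53 without control mouse 2 or 3, -0.18 without restricted mouse 2 and -0.09 with normexp background correction). Tff3, a secreted trefoil peptide, rose by 3.34 (SE 0.54, limma adjusted p = 0.00477), and Igf2bp3, a fetal RNA-binding protein that binds Igf2 transcripts, was dim in all control mice and at least 2.13-fold higher (limma adjusted p = 0.00367). Igdcc4, listed under its older name Nope and known as a surface marker of fetal liver cells, was dim in all restricted mice and at least 15.3-fold lower (limma adjusted p = 0.0046). Its control mice measured 0.65, -2.05 and -1.59, so mouse 1 stood above the others. The adjusted p beside such a bound is from the fit on the values without the bound. Plac8 fell by 1.9 (limma adjusted p = 0.00515). Among the imprinted growth genes 15 of 20 were tested, 5 rose and 5 fell, with a median of 0.42. Under the slide block 2 rose and 2 fell and the median was 0.14, and without control mouse 2 the counts were 2 and 1. The median was 0.08 without control mouse 1 and 0.18 without restricted mouse 3. Slc38a4, an amino acid transporter of liver and placenta, rose by 1.14 (limma adjusted p = 0.00342). Grb10, an adaptor that restrains insulin and IGF signalling, fell by 1.38 (limma adjusted p = 0.0138), and Peg3 fell by 1.7 (limma adjusted p = 0.0184).

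Of the genes that regulate Afp or neighbour it in the albumin family, 16 of 17 were tested, 4 rose and none fell, with a median of 0.6. Only 1 rose with slide as a block, where the median was 0.31 and 1121 of the 19616 features rose. In the other direction, 5 rose without control mouse 3. With mouse number as a block 6 rose, where 33.8% of all features were called. With array weights 9 rose, where 42.7% of all features were called. Without control mouse 2 or restricted mouse 3 the count was 1. Without control mouse 1 or restricted mouse 2 the count was 2. The 4 were the transcription factors Cebpa, which rose by 1.6 (limma adjusted p = 0.00511), Foxa2 by 1.36, Foxa1 by 0.89 and Nfix by 0.82. Alb (limma adjusted p = 0.319) and Gc (limma adjusted p = 0.349) did not pass and were saturated in all 6 mice, so no difference is given. Afm differed by 0.43 (limma adjusted p = 0.114) and did not pass. Zbtb20, a repressor of Afp after birth, differed by 0.19 (limma adjusted p = 0.507), and Zhx2, another repressor of Afp in adult liver, was well above background in 1 of 6 mice and was not tested. Of the list of receptors and binding proteins of IGF2, which also holds Igf1, Irs1 and Irs2, all 14 were tested. Of these 3 rose and none fell, with a median of 0.56 (0.35 without restricted mouse 2). Without control mouse 3, 6 rose and 1 fell. Igfbp3 rose by 2.07 (SE 0.21, limma adjusted p = 0.000874), Igfbp2 by 1.68 (SE 0.22, limma adjusted p = 0.00197), and Igf2r, the receptor that clears IGF2, by 0.67 (limma adjusted p = 0.0235).

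The families of Gpc3, Lgals3 and Ly6d together held calls in both directions, beside 27.5% of all features called, or 15.4% with slide as a block. Most of these calls rest on the fit over all mice without a slide term. Of the glypicans and the glypican-releasing enzyme Notum, 5 of 6 were tested. Gpc5 rose by 1.23 (limma adjusted p = 0.0174), Gpc1 fell by 1 (limma adjusted p = 0.0311), and Gpc6, dim in all restricted mice, was at least 1.51-fold lower (limma adjusted p = 0.0325). Only 1 of the 5 was called with slide as a block, and without control mouse 2 none was. Among 6 tested galectins and ligands 1 was called, Lgals4, an intestinal galectin, which rose by 1.76 (limma adjusted p = 0.0181). With slide as a block none rose and 1 fell, and without control mouse 1, control mouse 2 or restricted mouse 2 none was called. Of the Ly6 family 15 of 20 were tested, 3 rose and 2 fell. Under the slide block none rose and 1 fell, and on slide 1 alone none rose and 2 fell. Ly6e, an interferon-inducible member, fell by 2.33 (SE 0.25, limma adjusted p = 0.000984), and Cd59a, an inhibitor of complement, rose by 0.92 (limma adjusted p = 0.0108). Of the ductal and progenitor genes 20 of 25 were tested, 1 rose and 6 fell, with a median of -0.66 (-0.29 without restricted mouse 1, -0.41 without control mouse 3 and -0.31 with normexp background correction). Cd44, the hyaluronan receptor, fell by 2 (limma adjusted p = 0.00236) and Spp1, or osteopontin, by 2.33 (limma adjusted p = 0.00417), while the anion exchanger Slc4a2 rose by 1.4 (limma adjusted p = 0.00471). Epcam was dim in all restricted mice and at least 1.81-fold lower (limma adjusted p = 0.0126). The bile duct genes Krt19 and Sox9 differed by -0.93 (limma adjusted p = 0.355) and -2.06 (limma adjusted p = 0.0577) and did not pass.

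**Figure D5:**
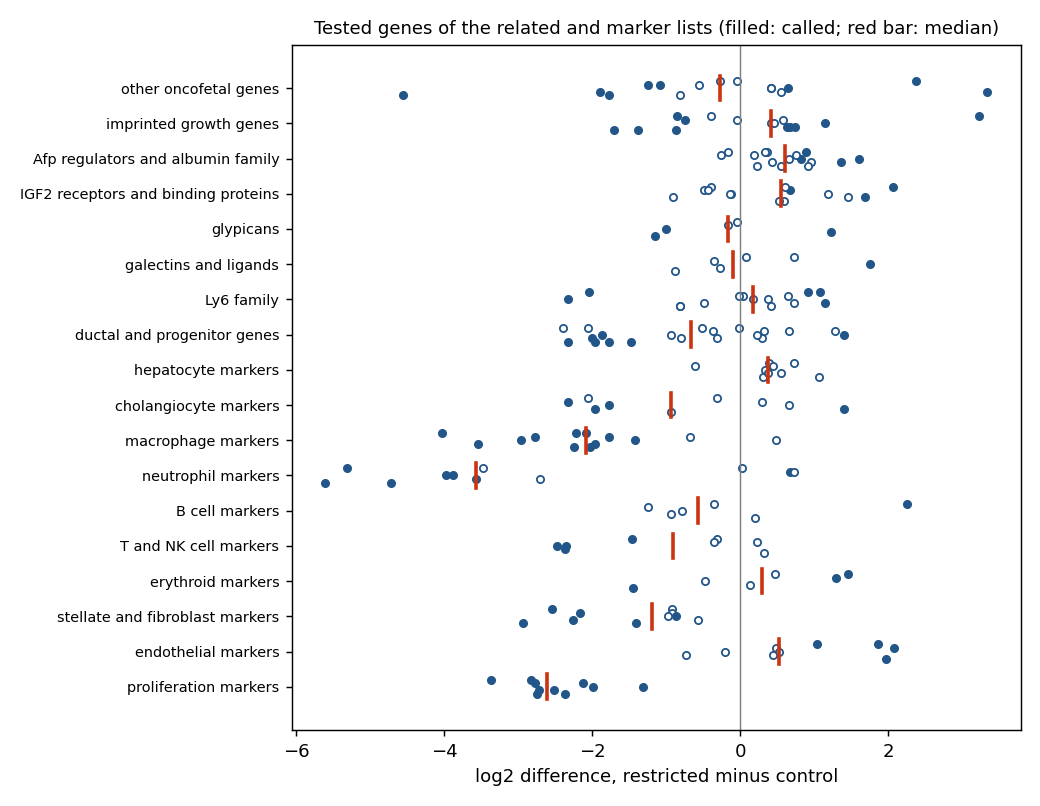
Log2 difference, restricted minus control (x axis), of each tested gene in the 8 related lists and the 10 marker lists (y axis); filled points passed at an adjusted p under 0.05 and the red bar is the list's median. Macrophage and proliferation markers lie mostly below 0, at medians of -2.09 and -2.62, and none of the 10 hepatocyte markers is called, 5 of which were saturated on all arrays and can show no change.

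Markers of other cell types moved with the fall of Cd24a, Ly6d, Golm1 and Lgals3, and their part in it was not tested. Counts of the marker lists stand beside 12.8% of all features lower, 14.6% higher and 27.5% called. Under the slide block 15.4% of all features were called. Macrophage markers fell in 11 of 13, with a median of -2.09, and their summed linear signal, in multiples of the 75th percentile, was 220 to 292 in control mice and 60.8 to 87.8 in restricted mice. Neutrophil markers fell in 6 of 11, with 1 risen and a median of -3.57 (-1.28 and 4 fallen with slide as a block). They summed to 152 to 186 against 91.9 to 135. Much of these sums was Csf3r, the brightest of them, which was not called (log2 means of 6.63 and 6.66). Stellate and fibroblast markers fell in 6 of 10, with a median of -1.19 (-2.12 with slide as a block), and summed to 136 to 162 against 46.5 to 74.7. Without control mouse 2, 3 of them fell. All 10 proliferation markers fell, with a median of -2.62 (-2.27 with dim genes at their bound, and -1.45 with 9 fallen under normexp background correction), and summed to 8.85 to 13.4 against 1.67 to 2.58. Among these, Marco fell by 3.55, Col3a1 by 2.55 and Mki67 by 2.72 (limma adjusted p from 0.000626 to 0.00638).

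The other marker lists are given in the same way, beside the same shares of all features. A sum over probes is carried by the brightest of them and can hide called changes of the others. Cholangiocyte markers fell in 3 of 9 tested and rose in 1, with a median of -0.93 (-0.3 without restricted mouse 1, -1.5 without restricted mouse 2 and -0.13 with normexp background correction). They summed to 14 to 16.3 in control mice and 15.9 to 19.7 in restricted mice, where Slc4a2, which rose, was bright. T and NK cell markers fell in 4 of 8, with a median of -0.91 (-1.54 with slide as a block). Their sums of 31.6 to 48.8 against 27.7 to 39.2 were carried by Cd4, which was not called (log2 means of 5.03 and 4.67). Of 6 B cell markers tested none fell and Vpreb3 rose by 2.26, with a median of -0.57. With slide as a block 3 of them fell and the median was -1.66, and it was -0.1 without restricted mouse 1 and 0.15 with normexp background correction. They summed to 1.98 to 2.49 against 0.933 to 2.29, with Ebf1 dim on all arrays. Of 6 erythroid markers tested 2 rose and 1 fell (none with slide as a block), and their sums were 39.1 to 78.3 against 35.2 to 68.6. Endothelial markers rose in 4 of 9 (in 2 when control mouse 1 or 3, or restricted mouse 1 or 2, was left out), and summed to 22.2 to 33.9 against 38.4 to 51.8. Of the 10 hepatocyte markers none passed by limma's adjusted p, the lowest being 0.0523 for Pck1. Alb, Cyp2e1, Serpina1c, Ttr and Trf were saturated on all 6 arrays, so they can show no change, and the sums of 964 to 1380 against 1250 to 1630 hold mostly saturated signal.

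Promoter sequences from RefSeq (GRCm38.p6, 250 bases before to 50 after an annotated start, which counts as position 0) were matched for 7 of the 10 genes. H19, Cd24a and Ly6d had no entry. Those of the single gene called higher and of the pair called lower that had an entry are printed. Capitals mark GTTAAT (the half-site of the hepatocyte factor HNF1), TATAAA (the TATA box) and GGGCGG (the GC box), each searched on both strands. Over 32851 promoters of this length 7.1% hold GTTAAT, 13.6% TATAAA and 35.7% GGGCGG. The windows are, in order, chr5:90490464-90490763 on the plus strand, chr13:59675735-59676034 on the minus strand and chr14:47373610-47373909 on the plus strand.

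Afp promoter: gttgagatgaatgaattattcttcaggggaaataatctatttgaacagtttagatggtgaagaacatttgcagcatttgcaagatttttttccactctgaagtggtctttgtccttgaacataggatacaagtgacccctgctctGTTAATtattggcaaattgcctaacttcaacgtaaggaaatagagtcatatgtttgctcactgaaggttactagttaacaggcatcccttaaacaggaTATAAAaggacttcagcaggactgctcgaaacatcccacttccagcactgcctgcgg
Golm1 promoter: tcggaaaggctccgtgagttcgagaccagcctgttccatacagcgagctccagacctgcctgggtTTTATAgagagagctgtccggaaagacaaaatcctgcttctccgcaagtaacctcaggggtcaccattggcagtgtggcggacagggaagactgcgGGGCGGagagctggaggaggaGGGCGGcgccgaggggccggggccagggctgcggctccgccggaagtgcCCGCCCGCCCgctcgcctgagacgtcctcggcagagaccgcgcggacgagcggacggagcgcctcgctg
Lgals3 promoter: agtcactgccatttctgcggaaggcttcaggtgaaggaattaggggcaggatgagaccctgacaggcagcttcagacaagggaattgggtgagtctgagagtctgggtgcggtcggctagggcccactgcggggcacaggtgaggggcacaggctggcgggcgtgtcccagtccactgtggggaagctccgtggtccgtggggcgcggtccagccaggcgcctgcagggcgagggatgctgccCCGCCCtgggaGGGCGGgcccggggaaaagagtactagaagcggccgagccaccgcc

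The Afp window holds GTTAAT at position -105, TATAAA at -7 and no GC box, and is 40% G and C, against a median of 52.7% for all promoters. The windows of Golm1 and Lgals3 are each 67% G and C. That of Golm1 holds 4 GC boxes, of which the last pair overlap, and TATAAA on the opposite strand at -185. That of Lgals3 holds 2 GC boxes. These letters describe the windows, and no binding was measured.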

How the data were processed

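Total RNA from the non-tumour liver of 6 mice, 3 for each diet, was labelled with Cy3 and measured on single-colour arrays, per the labels. The deposited intensity values are processed signals that Agilent Feature Extraction 10.7.3.1 made with spatial and multiplicative detrending, per the file headers, and the version given in the submitters' processing notes is 9.3.2.1. Set against these signals, the series' own values match the mean per probe within 0.1% for 99.67% to 99.77% of probes. Probe positions are on mm9, per the file headers.

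From 43020 spots per array, outlier spots (127 to 251) were left out, signals were put on the log2 scale and averaged over the spots of a probe, and each array was set to 0 at its 75th percentile. Probes well above background in every mouse of at least 1 diet were kept (24234 of 39429), and the probe with the highest mean stood for a gene, giving 19616 features. Names were updated through RefSeq accessions for 26055 probes, of which 3358 changed. Diets were tested with limma (lmFit and eBayes), with p adjusted by Benjamini-Hochberg over all features. The script was tested on simulated data. Where a probe was dim in all mice of a diet, the bound sets the brighter mean against the dim mean. Each dim array is then at no less than its lowest signal well above background. An adjusted p printed with a bound is from the fit on the values without it and does not test the bound.

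Named were all members, the called genes of smallest p in each list (up to 4, and 2 uncalled ones where no gene was called), and the 3 features most like each member; further genes were named after their values were seen. Members, lists and alternatives were chosen with earlier results of these data known. Alternatives were other background corrections, normalizations, filters, tests and thresholds, array weights, blocks for slide and mouse number, and leaving out each mouse. R 4.3.3 was used with the packages data.table (version 1.17.8) and limma (3.58.1).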

Additional observations from a re-analysis of the deposited data

How the results depend on the processing

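Cd24a, Golm1 and Lgals3 kept direction and call under all 21 alternatives with an adjusted p, at -4.73 to -3.09, -2.95 to -1.96 and -3.82 to -2.74. Afp, at 1.21 to 1.71, lost its call with slide as a block and on slide 1 alone (1.32), where Dlk1 gained one (2.53). Ly6d lost its call at a threshold of 0.01, in an ordinary pooled test and without control mouse 1 or 2. The exact permutation test cannot pass for any gene. H19 reversed with slide as a block and on slide 1 alone (-0.96) and ran from -0.46 to 0.78 when each mouse was left out: it was -0.46 without control mouse 2, -0.04 without control mouse 3, -0.18 without restricted mouse 2 and -0.16 without restricted mouse 3. The causes were not tested. Members called numbered 4 to 6 throughout.

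Over the whole array 5386 features were called (2868 higher, 2518 lower). The counts were 2533 (1117, 1416) at 0.01, 8368 (4863 higher) with array weights, 3013 (1121 higher) with slide as a block and 2254 (656, 1598) on slide 1 alone; the ordinary pooled test called 1632 lower. Those higher made up 53.2% of called features, 37.2% with slide as a block and 29.1% on slide 1 alone. Leaving out each mouse gave 3344 to 5818 called and 1549 to 3319 higher; it was 3344 without control mouse 2 and 3394 without restricted mouse 2. The median of the glypican list turned to 0.02 and that of the erythroid markers to -0.38 with slide as a block. With other scalings the median of all features was 0.07 to 0.21.

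Same-numbered mice of the diets correlated at 0.38, 0 and 0.48 after removal of the diet means, and the other pairs at -0.5 to 0.12. The labels give the mice only a number, and what else same-numbered mice share was not tested. With mouse number as a replicate block 6623 features were called, 5265 of them shared with the fit without it. Prom1 was then called (-1.57, adjusted p = 0.0339, range over alternatives 0.0141 to 0.3); Afp stayed at adjusted p = 0.00887.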

Other observations

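The genes next to each member on the chromosome, in RefSeq order, were looked at after the members' values were seen. With up to 2 tested genes on each side there were 36 different genes, of which 5 rose, 3 fell and 28 did not pass limma's test, beside 27.5% of all features called. The drop of Cd24a, Ly6d, Golm1 and Lgals3 was not matched by a called drop of any neighbour of theirs. Beside Cd24a, Mtres1 rose by 0.91 (limma adjusted p = 0.0191) and Rtn4ip1 by 0.82 (limma adjusted p = 0.0153). Beside Afp, Alb, saturated on all 6 arrays, and Afm, at 0.43, were not called, and Rassf6 rose by 0.99 (limma adjusted p = 0.0175). Around H19 and Igf2, Mrpl23, Nctc1, Ins2 and Th differed by 0.33 to 0.43 and none was called.

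Of the called neighbours, 3 lie beside Prom1. Bst1, or CD157, and Cd38, related enzymes that break down NAD and are found on leukocytes, both fell. Bst1 was dim in all restricted mice and at least 9.53-fold lower (limma adjusted p = 0.000941), and Cd38 fell by 1.25 (limma adjusted p = 0.0336). Ldb2, on the other side, rose by 1.01 (limma adjusted p = 0.0266). In the cluster of Dlk1, the RNA Mirg differed by -0.16 (limma adjusted p = 0.842) where Meg3 rose by 3.22, and Rtl1 was dim on all arrays.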
